A study of Mus musculus with 87 samples.

Results

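Brains of pTKO mouse fetuses at E18.5, shortly before birth, were set against pWT brains of the same stage. The comparison holds 4 of the 87 samples of the series, chosen by their labels for tissue and genotype: pTKO brain replicates 1 and 2, and pWT brain replicates 1 and 2. All 4 belong to batch 1. The series concerns semi-cloned mice, which arise when an androgenetic haploid embryonic stem cell, a cell with a single chromosome set of paternal origin, takes the place of the sperm in an oocyte. The title describes these stem cells as lacking DNA methylation. What the prefix p stands for, the strain of the mice, and whether replicates came from separate animals are not stated in the sources used here, so p-values measure the spread between these libraries, which may be technical. The pTKO and pWT libraries of heart, kidney, liver and lung at E18.5, 2 of each kind, were used only to ask whether a change was also present outside the brain.

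RNA was sequenced, and the tables as deposited give the raw number of reads assigned to each gene. The pTKO brain libraries held 10945310 and 16186786 counts over 25277 genes, against 10714628 and 12619342 in pWT. Levels are given in CPM, the counts of a gene per 1 M (mega) counts of its library. Each pair of replicates differed by more than counting noise, with a chi-square per degree of freedom of 4.09 in pTKO and 3.65 in pWT. No brain library held a count of any of 4 Y-linked genes, a sum of 0. All 14 pan-neuronal genes of the list passed the filter on low counts, and their summed level was 12521 and 12224 CPM in pTKO and 11991 and 12528 CPM in pWT. The libraries also differed in ways that their labels do not give. Hoxb3, a gene of the hindbrain and spinal cord, stood at 14.4 and 4.88 CPM in pTKO brains 1 and 2, against 8.87 and 0.238 CPM in pWT brains 1 and 2. Krt1, a keratin of the outer skin, stood at 10.7 and 38.2 CPM in pTKO and 6.81 and 8.72 CPM in pWT. Replicate 1 of both groups held more of this Hox transcript, and pTKO replicate 2 more of this keratin, and both genes were chosen after their values were seen.

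DNA methylation is the addition of a methyl group to cytosine, in mammals mostly where it is followed by guanine (a CpG). DNMT3A and DNMT3B place the mark on unmethylated DNA, and DNMT1 copies it onto the new strand after replication. The mark keeps genes of the germ line silent in somatic tissues when it covers a CpG-rich promoter, and distinguishes the parental copies of imprinted genes.

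Of 15531 genes tested with the quasi-likelihood test of edgeR, 272 passed a Benjamini-Hochberg adjusted p of 0.05 (1.75%). Of these, 107 rose in pTKO (0.689%) and 165 fell (1.06%). The changes were small for most: 55 of the rises and 147 of the falls were under 1.5-fold, while 24 genes rose and 6 fell by more than 2-fold. In every one of the 272 genes both pTKO libraries lay on the same side of both pWT libraries. A call made from these same values makes that likely, so it adds no support. Of all 20416 genes with a count, both pTKO libraries lay above in 23.9% and below in 18.8%. Leaving out each library in turn, 63 genes (33 that rose and 30 that fell) were called in all 4 fits, and these are described below as holding without any 1 library. The total itself depended on single libraries, with 155 genes called without pWT replicate 1, 244 without pWT replicate 2, 556 without pTKO replicate 1 and 687 without pTKO replicate 2. With library totals in place of TMM scaling 120 genes rose and 113 fell, and the median log2 fold change of all genes was 0.02, against 0.01 with TMM.

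The genes of the DNA methyltransferases came first, because stem cells of the series carry the labels Dnmt TKO and Dnmt WT, which name the altered genes. Dnmt1, on chromosome 9 (mm10, 20907209 to 20959888), stood at 145 and 142 CPM in pTKO brains, against 247 and 245 CPM in pWT brains. Its fitted level in pTKO was 57.8% of that in pWT (log2 fold change −0.79 ± 0.06, SE, n = 2 each, edgeR adjusted p = 4.26e-05). Dnmt3a, on chromosome 12 (3806007 to 3914443), stood at 151 and 155 CPM in pTKO and 251 and 236 CPM in pWT. Its fitted level was 62.0% of that in pWT (−0.69 ± 0.06, adjusted p = 1.15e-04). Both falls held without any 1 library, and the pTKO values of each gene lay far below the pWT values. Dnmt3b, on chromosome 2, was low in all 4 libraries, at 6.67 and 6.86 CPM in pTKO and 4.48 and 6.42 CPM in pWT, and was not called (log2 fold change 0.29 ± 0.24, adjusted p = 0.609). Transcripts of all 3 genes were thus present in pTKO brains. The sources used here do not give which part of each gene was altered, so a remaining count does not show a working transcript from an altered copy. In a semi-cloned mouse the oocyte also brings a copy of each gene. The counts do not separate the copies, so the share of each was not tested.

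Of 15 tested genes that read, copy, remove or protect the mark, 1 rose and 1 fell, and these were chosen for description after their values were seen. Tdg, a glycosylase that cuts oxidised methylcytosine out of DNA, rose to 63.4 and 74.8 CPM in pTKO, against 39.9 and 41.9 CPM in pWT (0.74 ± 0.09, adjusted p = 0.00204), and held without any 1 library. Its pseudogene Tdg-ps2 had nearly the same counts, so the reads of the pair cannot be assigned to one of them. Tet3, a dioxygenase that oxidises methylcytosine, stood at 161 and 156 CPM in pTKO and 203 and 184 CPM in pWT. It fell (−0.31 ± 0.07, adjusted p = 0.0371), but not without pWT replicate 1 (adjusted p = 0.169), nor with the trend on transcript length taken out (0.297). Uhrf1, which brings DNMT1 to newly copied DNA, stood at 28.3 and 29.3 CPM in pTKO and 34.2 and 31.5 CPM in pWT and was not called (−0.20 ± 0.10, adjusted p = 0.349).

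**Figure D1:**
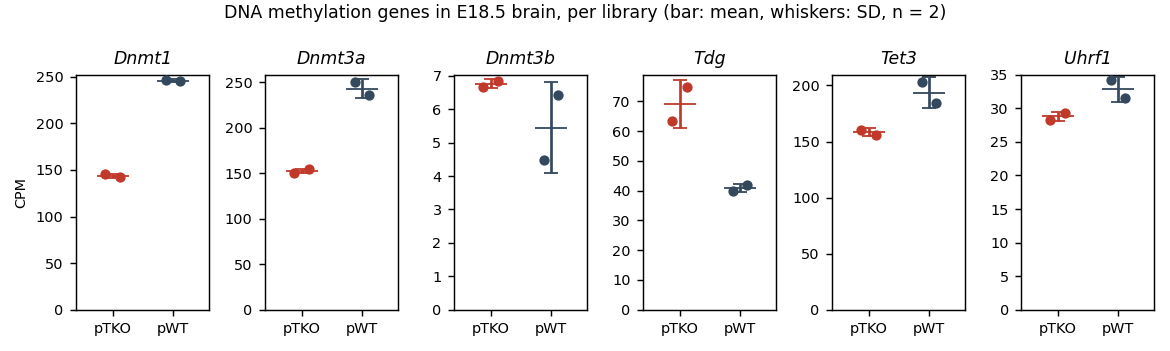
Level in CPM of 6 genes of DNA methylation in each E18.5 brain library (points), with the mean (bar) and SD (whiskers) of pTKO (red, n = 2) and pWT (blue, n = 2); each panel has its own axis from 0. Dnmt1 and Dnmt3a lie lower in pTKO, Tdg lies higher, and Dnmt3b is low in both groups.

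Several genes of the germ line rose. The list of germ cell genes with promoters that are methylated in somatic cells has 34 members. Of these, 15 passed the filter on low counts, 7 rose, none fell, and 19 were too low to test. Of the 7, Slc25a31, Mael, Fkbp6 and Taf7l passed the filter only through the pTKO libraries and so had to differ. No support is drawn from their number, their calls or their fold changes. Over the 30 members with any count, both pTKO libraries lay above both pWT libraries for 13 and below for 3, against those shares of all genes.

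The promoters of the 4 members whose rise held without any 1 library are shown because germ line promoters are known as places where methylation silences a gene. Among these, Slc25a31, Mael and Fkbp6 had to differ by the filter, so the choice only picks which sequences to print. They are the 250 bases before the RefSeq start (GRCm38.p6, the assembly of mm10), in the direction of the gene, with each CpG in capitals. Slc25a31 is at chr3:40708621-40708870 on the plus strand, Mael at chr1:166238745-166238994 on the minus strand, Fkbp6 at chr5:135350045-135350294 on the minus strand and Ddx4 at chr13:112652311-112652560 on the minus strand.
Slc25a31: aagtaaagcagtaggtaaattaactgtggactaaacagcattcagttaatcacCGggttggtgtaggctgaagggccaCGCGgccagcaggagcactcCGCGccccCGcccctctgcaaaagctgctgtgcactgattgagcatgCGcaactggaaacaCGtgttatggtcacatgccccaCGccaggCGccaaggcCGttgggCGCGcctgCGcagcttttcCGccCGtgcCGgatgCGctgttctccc
Mael: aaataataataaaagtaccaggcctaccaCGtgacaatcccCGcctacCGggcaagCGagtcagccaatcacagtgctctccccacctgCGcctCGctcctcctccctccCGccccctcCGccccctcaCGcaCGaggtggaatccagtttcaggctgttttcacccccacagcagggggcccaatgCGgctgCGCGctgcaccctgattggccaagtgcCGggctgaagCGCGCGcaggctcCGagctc
Fkbp6: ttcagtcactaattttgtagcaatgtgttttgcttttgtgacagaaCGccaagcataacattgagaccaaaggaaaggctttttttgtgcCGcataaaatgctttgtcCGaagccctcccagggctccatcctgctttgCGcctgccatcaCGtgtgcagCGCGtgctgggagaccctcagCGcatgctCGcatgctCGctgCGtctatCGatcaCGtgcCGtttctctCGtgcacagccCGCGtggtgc
Ddx4: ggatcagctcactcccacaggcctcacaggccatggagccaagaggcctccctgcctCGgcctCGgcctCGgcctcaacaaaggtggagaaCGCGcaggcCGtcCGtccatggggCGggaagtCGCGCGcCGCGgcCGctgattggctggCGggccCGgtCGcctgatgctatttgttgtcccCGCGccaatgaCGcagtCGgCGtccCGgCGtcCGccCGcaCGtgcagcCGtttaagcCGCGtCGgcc
The 4 stretches hold 18, 18, 17 and 31 CpG. RefSeq windows of 300 bases add the first 50 bases of the gene. In these windows all 7 members that rose held 17 to 38 CpG (median 22). The median was 7 over 27025 windows of all genes, but 19 over the 29 windows of the germ cell list. The 6 members tested and not called held 10 to 23 CpG, and the 16 not tested held 5 to 29 (median 16.5). The list as a whole was thus CpG-rich, and the ranges of these sets overlapped. Whether the CpG count was tied to a rise was not tested. Each of the 4 stretches also holds the palindrome CACGTG, read here as caCGtg, and Fkbp6 holds it 2 times. A search of both strands found CACGTG in the windows of all 7 members that rose, in 4 of 6 members tested and not called, in 5 of 16 not tested, and in 7.24% of all windows. TCCCGC was found in 4 of the 7 and in 20% of all windows. It was found in 2 of the 6 tested and not called and in 8 of the 16 not tested. These matches describe the letters and were not tested.

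Slc25a31, an ADP/ATP carrier of the mitochondrial membrane needed in male germ cells, stood at 9.41 and 9.39 CPM in pTKO brains, against 0.560 and 0.475 CPM in pWT brains. Its summed counts were 255 in pTKO and 12 in pWT, and it rose (log2 fold change 4.15 ± 0.34, adjusted p = 5.78e-05). Mael, which acts with the piRNA pathway that silences transposons, stood at 4.20 and 7.04 CPM in pTKO and 0 and 0.396 CPM in pWT. The summed counts of Mael were 160 and 5, a ratio of 27.5 with a 95% counting interval of 11.6 to 85.9 (adjusted p = 0.00225). Fkbp6, another member of the piRNA pathway, stood at 3.20 and 6.92 CPM in pTKO and 0.560 and 0 CPM in pWT. Its summed counts were 147 and 6, a ratio of 21.1 with an interval of 9.45 to 58.3 (adjusted p = 0.0102). The intervals, both exact, cover counting error only. For each of these 3 genes both pTKO libraries lay well above both pWT libraries, and the 2 pTKO libraries differed most for Fkbp6.

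Ddx4, the RNA helicase known as VASA, was the clearest member with a level above the filter in both groups. It stood at 13.8 and 14.9 CPM in pTKO, against 3.92 and 4.12 CPM in pWT (log2 fold change 1.82 ± 0.20, adjusted p = 4.82e-04). Stag3, a cohesin subunit of meiosis, stood at 30.7 and 31.7 CPM in pTKO and 19.6 and 23.1 CPM in pWT (0.53 ± 0.12, adjusted p = 0.0404), and was not called without pWT replicate 1 (0.217). Tdrd1, a Tudor protein of the piRNA pathway, stood at 13.9 and 16.9 CPM in pTKO and 8.87 and 9.59 CPM in pWT (0.73 ± 0.17, adjusted p = 0.0471). Taf7l, a TFIID subunit used in male germ cells, stood at 2.65 and 2.59 CPM in pTKO and 0.560 and 0.713 CPM in pWT (2.00 ± 0.45, adjusted p = 0.0429). The calls of Tdrd1 and Taf7l rest on the full set of libraries: the adjusted p of Tdrd1 was 0.143 without pWT replicate 1, 0.0832 without pWT replicate 2 and 0.116 without pTKO replicate 2, and that of Taf7l was 0.0562 to 0.201 over the 4 fits.

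Members that were tested and not called included Sycp3, a protein of the meiotic chromosome axis, at 2.92 and 3.58 CPM in pTKO and 3.45 and 4.60 CPM in pWT (−0.32 ± 0.31, adjusted p = 0.661). Brdt, a bromodomain protein of the testis, stood at 9.32 and 5.87 CPM in pTKO and 8.12 and 6.89 CPM in pWT (−0.02 ± 0.25, adjusted p = 0.979). Dazl, an RNA-binding protein often used as a readout of germ line promoter methylation, was too low to test, at 0.640 and 0.803 CPM in pTKO and 0.933 and 0.792 CPM in pWT. The list thus did not move as 1 block. These 3 genes were chosen for description after their values were seen.

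Outside the list, Syce1, a central element of the synaptonemal complex that joins chromosomes in meiosis, stood at 6.03 and 5.56 CPM in pTKO and 1.03 and 1.98 CPM in pWT (1.89 ± 0.35, adjusted p = 0.0201, but 0.055 without pWT replicate 1). Xlr4c stood at 3.11 and 1.98 CPM in pTKO and 0 and 0.238 CPM in pWT, a ratio of summed counts of 18.9 (95% counting interval 6.20 to 94.1, adjusted p = 0.0151, but 0.0522 without pWT replicate 1). The predicted gene Gm4779 stood at 5.48 and 6.05 CPM in pTKO and 0.280 and 0 CPM in pWT, a ratio of 45.3 (15.2 to 222, adjusted p = 5.96e-04). 8030474K03Rik stood at 3.47 and 2.59 CPM in pTKO and 0.187 and 0 CPM in pWT, a ratio of 34.4 (9.22 to 289, adjusted p = 0.00681). Xlr4c, Gm4779 and 8030474K03Rik passed the filter on low counts only through the pTKO libraries and so had to differ. No support is drawn from their calls. Xlr4c, Gm4779 and 8030474K03Rik were picked after their values were known and lie on the X chromosome, where 7 of 548 tested genes rose and 11 fell, and the median log2 fold change was −0.01.

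The same germ line genes were read in the other organs. Slc25a31 stood at 29.4 and 41.1 CPM in pTKO hearts, against 1.00 and 3.26 CPM in pWT hearts. In kidney it stood at 10.6 and 23.4 CPM in pTKO and 0.450 and 0.0856 CPM in pWT. In liver the values were 5.63 and 14.9 CPM in pTKO and 0.215 and 0.409 CPM in pWT, and in lung 6.52 and 5.31 CPM in pTKO and 0.163 and 0.576 CPM in pWT. Slc25a31, Mael, Fkbp6, Ddx4, Stag3 and Syce1 each had both pTKO libraries above both pWT libraries in all 5 organs, which in heart, kidney, liver and lung held for 36.8%, 30.6%, 31.5% and 14.1% of all genes with a count. Taf7l, Xlr4c, Gm4779 and 8030474K03Rik did so in 4 of the 5, and Tdrd1 in 2, brain and kidney. Ddx4 and Stag3 had their highest level in brain in both groups: Stag3 stood at 6.46 and 5.08 CPM in pTKO hearts and 1.19 and 0.840 CPM in pWT hearts, while its pWT brain level was 19.6 and 23.1 CPM. The brain change minus the mean change of the other organs was −1.60 ± 0.31 for Stag3 and −1.32 ± 0.60 for Ddx4 on the log2 scale, and neither passed the test across 18806 genes (adjusted p = 0.621 for both).

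**Figure D2:**
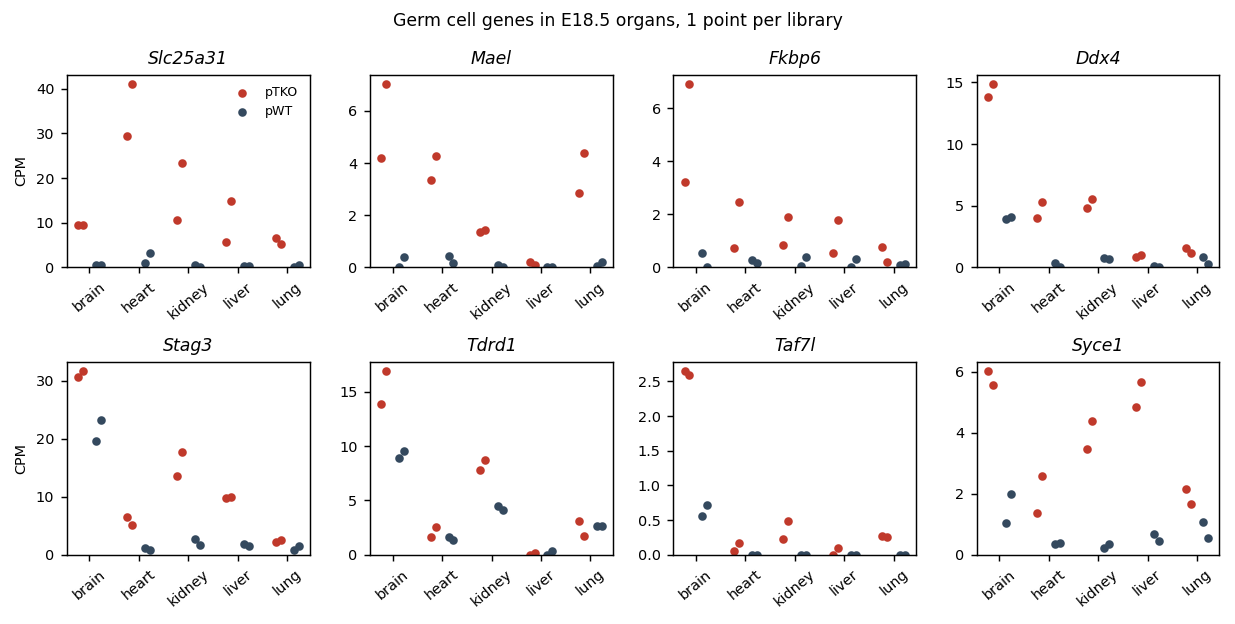
Level in CPM of 8 germ line genes in E18.5 brain, heart, kidney, liver and lung, with 1 point per library for pTKO (red, left of each pair) and pWT (blue, right); each panel has its own axis from 0. Slc25a31 is highest in pTKO heart, while Ddx4, Stag3, Tdrd1 and Taf7l are highest in pTKO brain.

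Genes induced by interferon, the signal of antiviral defence, lay higher in pTKO brains, although 1 member alone passed the test. Of 20 listed genes 17 were tested, 6 of them passing the filter only through pTKO, so the fold changes of the tested members are not summarised. Irf7, Rsad2 and Usp18, described below, are among these 6 and so had to differ. No support is drawn from their calls or fold changes. Over all 20 members, each with a count, both pTKO libraries lay above both pWT libraries for 17 and below for none, against 23.9% and 18.8% of all genes with a count. The summed level of the list was 143 and 141 CPM in pTKO and 94.0 and 101 CPM in pWT. Irf7, the transcription factor that amplifies the response, stood at 4.29 and 3.09 CPM in pTKO and 0.747 and 1.03 CPM in pWT (2.00 ± 0.42, adjusted p = 0.0338). That call was kept only without pTKO replicate 2 (0.00441) and not without pWT replicate 1 (0.127), pWT replicate 2 (0.0633) or pTKO replicate 1 (0.0565).

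Other members lay the same way and did not pass the threshold. Rsad2, which encodes the antiviral enzyme viperin, stood at 2.01 and 1.24 CPM in pTKO and 0.280 and 0.238 CPM in pWT (2.56 ± 0.62, adjusted p = 0.0522). Usp18, a brake on interferon receptor signalling, stood at 2.01 and 1.92 CPM in pTKO and 0.653 and 0.475 CPM in pWT (1.77 ± 0.49, adjusted p = 0.0813). Rsad2, Usp18 and Irf7 were chosen after their values were seen. No filter on low counts left 7 members called.

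Outside the list, Ifitm3, a membrane protein that blocks virus entry, rose to 10.05 and 11.9 CPM in pTKO, against 4.48 and 5.23 CPM in pWT (1.16 ± 0.21, adjusted p = 0.0182). Shfl, an inhibitor of viral frameshifting, rose to 16.1 and 15.6 CPM in pTKO, against 7.75 and 7.37 CPM in pWT (1.05 ± 0.17, adjusted p = 0.00952). H2-D1, a class I histocompatibility gene, rose to 21.7 and 31.8 CPM in pTKO, against 13.4 and 14.9 CPM in pWT (0.91 ± 0.16, adjusted p = 0.0182). All 3 held without any 1 library, although the change of H2-D1 was 0.60 without pTKO replicate 2, and Shfl and H2-D1 were chosen after their values were seen. H2-D1 shares reads with other class I genes, so its count is uncertain. Of 16 microglia and macrophage genes, which could also carry such transcripts, 0 were called by edgeR and 1 had an unadjusted p under 0.05. Their summed level was 137 and 183 CPM in pTKO and 160 and 147 CPM in pWT. Whether their number played a part was not tested.

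Interferon genes were also read in the other organs. Isg15, a ubiquitin-like protein of the response, stood at 9.24 and 12.2 CPM in pTKO hearts and 11.0 and 14.6 CPM in pWT hearts, and at 14.7 and 24.5 CPM in pTKO kidneys and 17.5 and 13.5 CPM in pWT kidneys. In brain it was lower, at 2.92 and 2.59 CPM in pTKO and 1.77 and 1.27 CPM in pWT. The brain change minus the mean change of the other organs was 1.68 ± 0.76 for Irf7 and 1.35 ± 0.52 for Ifitm3 (adjusted p = 0.621 for both), so a difference between organs was not shown.

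**Figure D3:**
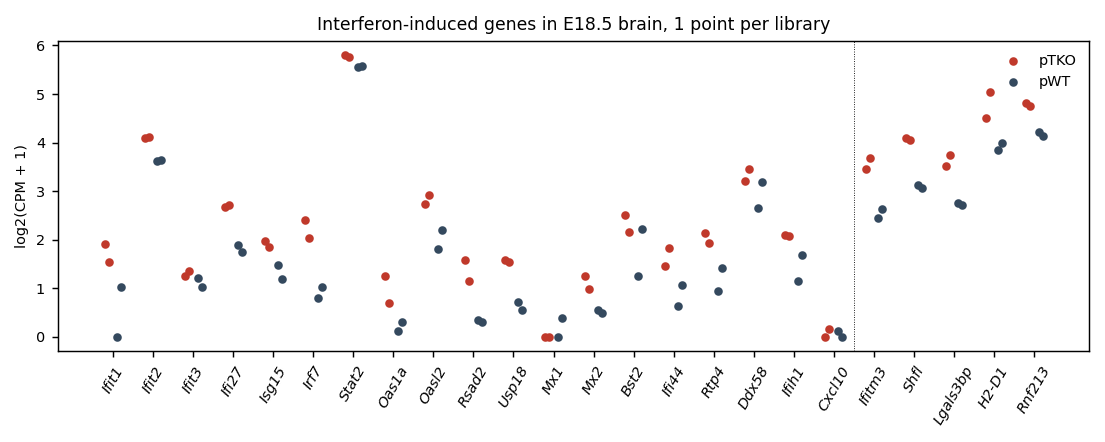
Level as log2(CPM + 1) of 19 of the 20 listed interferon-induced genes and, right of the dotted line, 5 related genes that rose, with 1 point per E18.5 brain library for pTKO (red, left of each pair) and pWT (blue, right). The pTKO points lie above the pWT points for 16 of the 19 listed genes shown.

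Genes of astrocytes, the star-shaped glia that begin to form around birth, rose in part. In bulk tissue more cells of a type cannot be told apart from more RNA per cell. Of 14 listed genes, all tested, 4 rose and none fell, 13 had a positive log2 fold change, and the median was 0.27. Of all genes tested 0.689% rose and 51.2% had a positive log2 fold change. Both pTKO libraries lay above both pWT libraries for 12 of the 14, where this held for 23.9% of all genes with a count. Gfap, the intermediate filament of astrocytes, stood at 20.3 and 25.3 CPM in pTKO, against 6.63 and 8.16 CPM in pWT (1.61 ± 0.17, adjusted p = 4.02e-04), and held without any 1 library. Aqp4, the water channel of astrocyte endfeet, stood at 39.8 and 59.5 CPM in pTKO and 30.9 and 30.0 CPM in pWT (0.70 ± 0.15, adjusted p = 0.0339), a change of 0.38 without pTKO replicate 2. Aldoc, an aldolase, stood at 136 and 141 CPM in pTKO and 109 and 98.7 CPM in pWT (0.40 ± 0.07, adjusted p = 0.0146). Sparcl1, a secreted protein of synapse formation, stood at 478 and 530 CPM in pTKO and 409 and 411 CPM in pWT (0.28 ± 0.06, adjusted p = 0.0339). The change of Sparcl1 was 0.21 without pTKO replicate 2. Sparcl1 was not called with the trend on transcript length taken out (edgeR adjusted p = 0.0661). Without pWT replicate 2 only 1 member was called, without pTKO replicate 2 there were 2, and without pTKO replicate 1 there were 7.

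Other glial and secreted genes lay the same way. Agt, the angiotensin precursor that astrocytes secrete, stood at 6.30 and 12.6 CPM in pTKO and 2.33 and 3.49 CPM in pWT (1.69 ± 0.33, adjusted p = 0.0271), a change of 1.09 without pTKO replicate 2 (adjusted p = 0.0698). Apoe, the lipid carrier of the brain, rose to 237 and 278 CPM in pTKO, against 181 and 157 CPM in pWT (0.59 ± 0.08, adjusted p = 0.00323), and held without any 1 library. Olig1, a transcription factor of oligodendrocytes, stood at 65.0 and 59.6 CPM in pTKO and 45.7 and 43.7 CPM in pWT (0.46 ± 0.09, adjusted p = 0.0252), and was the only one of 12 tested oligodendrocyte genes to rise, although all 12 had a positive log2 fold change. It was not called without pWT replicate 2 (0.0797) or with the trend on GC content taken out (0.0524). Apoe and Olig1 were chosen after their values were seen. Progenitor genes of the cortex, of which Slc1a3 is shared with the astrocyte list, had 0 of 14 called by edgeR, and 6 at an unadjusted p under 0.05. Trpv4, a cation channel of choroid plexus and other epithelia, stood at 4.75 and 5.62 CPM in pTKO and 2.15 and 1.27 CPM in pWT (1.61 ± 0.35, adjusted p = 0.0374, but 0.133 without pWT replicate 2).

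Markers of tissue at the edge of the brain moved with the libraries. Ttr, the thyroxine carrier made by the choroid plexus, stood at 652 and 845 CPM in pTKO and 555 and 316 CPM in pWT (0.77 ± 0.18, adjusted p = 0.0449). Its change was 0.41 without pWT replicate 2 (adjusted p = 0.0531) and 1.23 without pWT replicate 1, and the adjusted p was 0.321 with DESeq2. Of 16 choroid plexus genes it alone rose, and the summed level of the list was 1189 and 1564 CPM in pTKO and 1168 and 845 CPM in pWT. The 16 genes of meningeal fibroblasts summed to 895 and 1354 CPM in pTKO and 970 and 916 CPM in pWT, and 1 of them rose. The 14 genes of skin and oral epithelium summed to 38.6 and 106 CPM in pTKO and 31.7 and 30.3 CPM in pWT. Of the 9 tested, 0 were called by edgeR and 4 had an unadjusted p under 0.05. The part of these tissues in the glial values, which were also higher in pTKO replicate 2 for Aqp4 and Agt, was not tested.

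**Figure D4:**
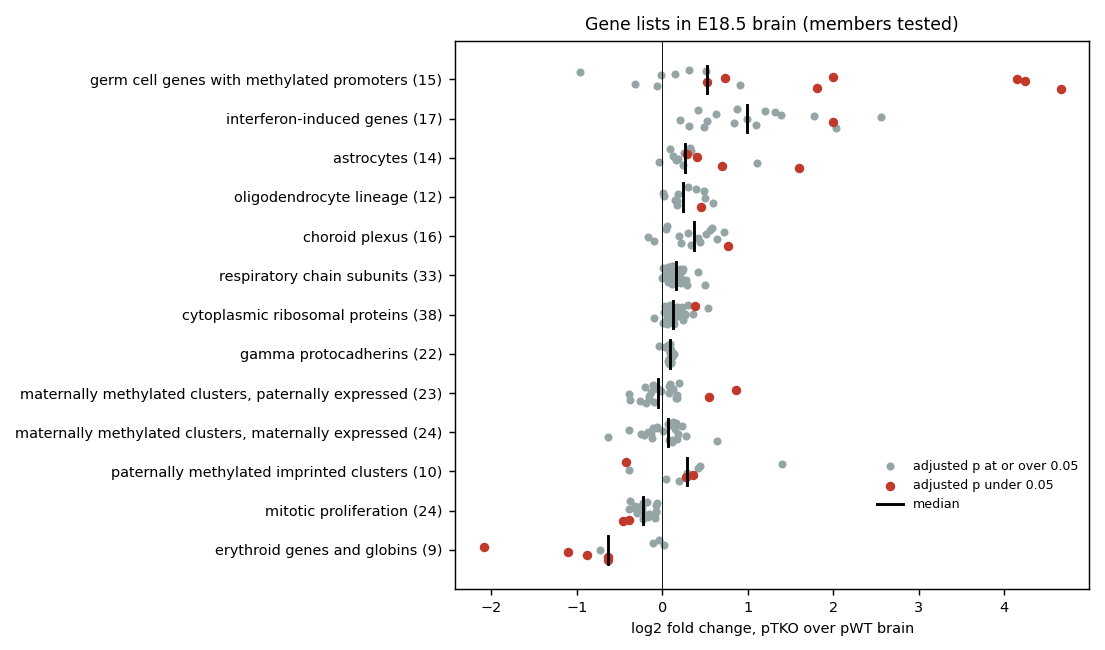
Log2 fold change of pTKO over pWT in E18.5 brain for the tested members of 13 gene lists (points; number tested in brackets), with members under an adjusted p of 0.05 in red, the others in grey and the median of each list as a black line. The points include members that passed the filter on low counts through 1 group alone, among them Mael, the highest germ line point, and Slc4a1, the lowest erythroid point. Such members through pTKO alone make up 6 of 17 interferon-induced genes and 5 of 15 germ cell genes. No support is drawn from the medians of these lists.

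Transcripts of red blood cells fell. Of 17 listed erythroid genes 9 were tested and 5 fell, where 1.06% of all genes tested fell. Over the 16 members with any count, both pTKO libraries lay below both pWT libraries for 8 and above for 1. Of all genes with a count, both lay below in 18.8% and above in 23.9%. The erythroid totals include both Hba-a1 and Hba-a2, whose counts are identical. Hbb-bs, an adult beta globin, stood at 221 and 185.03 CPM in pTKO, against 395 and 345 CPM in pWT (−0.89 ± 0.08, adjusted p = 1.67e-04). Hbb-bt, the other adult beta globin, stood at 31.7 and 22.1 CPM in pTKO and 68.0 and 45.2 CPM in pWT (−1.10 ± 0.18, adjusted p = 0.0107). Hba-a1, an alpha globin, stood at 178 and 159 CPM in pTKO and 283 and 237 CPM in pWT (−0.64 ± 0.08, adjusted p = 0.00206). These falls held without any 1 library. Hba-a2 had counts identical to Hba-a1, and the symbols Hbb-b1 and Hbb-b2 had counts identical to Hbb-bs and Hbb-bt, so these symbols carry 3 measurements and not 6. Slc4a1, the anion exchanger of the red cell membrane, was the other of the 5, at 0.640 and 0.494 CPM in pTKO and 2.71 and 2.06 CPM in pWT (−2.09 ± 0.48, adjusted p = 0.0447), and was chosen after its values were seen. It passed the filter only through the pWT libraries and so had to differ, and no support is drawn from it. Of the fits that left out a library it was called in 1, without pTKO replicate 1 (0.045, and 0.0957 to 0.269 in the others), and it was not called with the length trend taken out (0.0718). Tfrc and Bpgm, which other cells use as well, had log2 fold changes of −0.04 ± 0.08 and 0.02 ± 0.08. With globins left out of totals and tests 262 genes were called.

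Imprinted genes, of which only the maternal or the paternal copy is active, were examined by the parent that lays the methylation mark. Clusters with a mark from the father come first, since the haploid cells stand in for the sperm. Of 11 genes in these clusters 10 were tested, 2 rose and 1 fell. Meg3, a long noncoding RNA expressed from the maternal copy of the Dlk1-Dio3 cluster on chromosome 12, stood at 5711 and 5828 CPM in pTKO, against 4949 and 4434 CPM in pWT (0.28 ± 0.06, adjusted p = 0.0293). Rian, another maternal noncoding RNA of the cluster, stood at 1008 and 1157 CPM in pTKO and 850 and 824 CPM in pWT (0.36 ± 0.06, adjusted p = 0.0151). Both rises held without any 1 library and were small, at 1.22-fold and 1.28-fold. Mirg, the third such RNA, stood at 30.8 and 31.9 CPM in pTKO and 26.7 and 23.9 CPM in pWT (0.29 ± 0.11, adjusted p = 0.189), with no overlap between the groups but no call.

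The protein-coding genes of the same cluster are expressed from the paternal copy. Dlk1, a Notch-like growth regulator, stood at 34.3 and 23.3 CPM in pTKO and 34.9 and 38.6 CPM in pWT (−0.39 ± 0.15, adjusted p = 0.211). Rtl1, a retrotransposon-derived gene, stood at 15.1 and 13.3 CPM in pTKO and 9.99 and 10.9 CPM in pWT (0.41 ± 0.17, adjusted p = 0.225). Zdbf2, a paternally expressed gene on chromosome 1, fell to 106 and 90.9 CPM in pTKO, against 140 and 120 CPM in pWT (−0.43 ± 0.09, adjusted p = 0.0333). The fall of Zdbf2 was not called without pWT replicate 1 (0.11) or with the trend on transcript length taken out (0.176). H19, a maternal noncoding RNA, stood at 352 and 544 CPM in pTKO and 398 and 376 CPM in pWT (0.20 ± 0.13, adjusted p = 0.475). Igf2, the growth factor beside it, stood at 384 and 510 CPM in pTKO and 447 and 416 CPM in pWT (0.04 ± 0.09, adjusted p = 0.888). The groups overlapped for H19 and for Igf2.

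Among genes marked by the mother, 2 of 23 tested paternally expressed genes rose and 0 of 24 tested maternally expressed genes were called by edgeR, while DESeq2 called 1 and 6 had an unadjusted p under 0.05. Ndn, a paternally expressed gene of the Prader-Willi region that promotes the maturation of neurons, rose to 408 and 354 CPM in pTKO, against 262 and 254 CPM in pWT (0.54 ± 0.07, adjusted p = 0.00206), and held without any 1 library. Its neighbours were not called, and their difference from Ndn was not tested. Snrpn, a splicing factor gene, stood at 543 and 516 CPM in pTKO and 455 and 479 CPM in pWT (0.16 ± 0.06, adjusted p = 0.165), with both pTKO libraries above both pWT libraries. Magel2, which regulates protein sorting, stood at 71.4 and 59.4 CPM in pTKO and 71.7 and 72.1 CPM in pWT (−0.16 ± 0.09, adjusted p = 0.406). Nap1l5 stood at 149 and 290 CPM in pTKO and 114 and 126 CPM in pWT (0.86 ± 0.19, adjusted p = 0.0423), and its log2 fold change was 0.30 without pTKO replicate 2. The call was lost without pWT replicate 2 (0.0514), with DESeq2 (0.296) and with the length trend taken out (0.0828). The named genes of these imprinted lists that were not called were chosen after their values were seen.

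Most genes that fell have long transcripts, and this bears on many of the falls named here, though not on all. The median of the longest annotated transcript was 7914.5 bases for genes that fell and 2312 for genes that rose, against 3377 for all genes tested. Genes were cut into 5 equal groups by transcript length. In the group with the longest transcripts 124 fell and 12 rose, with a median log2 fold change of −0.09, while in the group with the shortest 6 fell and 40 rose, with a median of 0.10. Across 15199 genes, which are not independent replicates, Spearman's rho between transcript length and log2 fold change was −0.289. With this trend taken out 99 genes were called, of which 71 rose and 28 fell, and 88 of them were among the 272. Dnmt1, Dnmt3a, the globins and the germ line genes Slc25a31, Mael, Fkbp6 and Ddx4 were among those called after this step. Of these germ line genes, Ddx4 alone had not passed the filter only through pTKO. The part that RNA quality or library making may have in this trend was not tested.

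**Figure D5:**
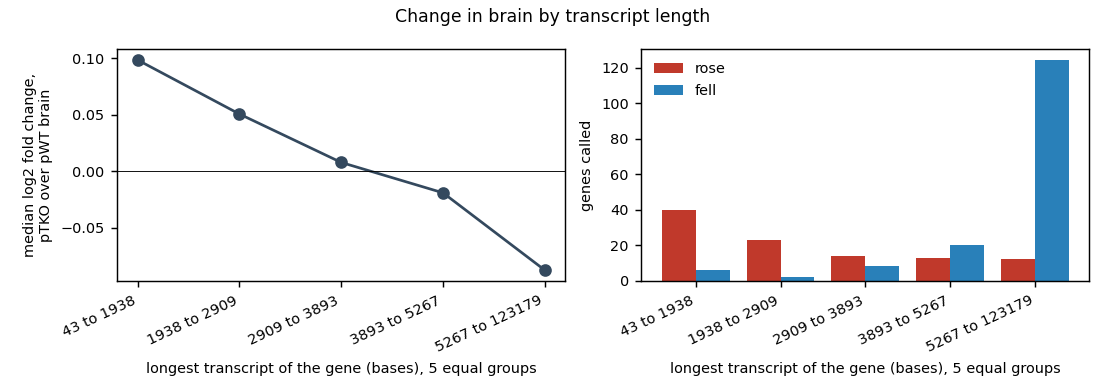
Median log2 fold change of pTKO over pWT (left) and number of genes that rose (red) or fell (blue) at an adjusted p of 0.05 (right) in 5 equal groups of the tested genes by their longest annotated transcript. The median runs from 0.10 in the shortest to −0.09 in the longest group, which holds 124 of the genes that fell.

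Beside this trend, lists of axon guidance and thalamus genes held 3 falls each. Of 26 axon guidance genes, Dcc, the netrin receptor, stood at 124 and 130 CPM in pTKO and 177 and 160 CPM in pWT (−0.43 ± 0.07, adjusted p = 0.00952). Epha4, an ephrin receptor, stood at 132 and 130 CPM in pTKO and 176 and 164 CPM in pWT (−0.39 ± 0.06, adjusted p = 0.0117). Plxna2, a semaphorin receptor, stood at 401 and 398 CPM in pTKO and 502 and 472 CPM in pWT (−0.30 ± 0.06, adjusted p = 0.0201). With the length trend taken out, Epha4 was called (0.0306), while Dcc (0.0686) and Plxna2 (0.232) were not. Of 10 genes of the thalamus and epithalamus, Tcf7l2, a factor of Wnt signalling, stood at 138 and 164 CPM in pTKO and 181 and 217 CPM in pWT (−0.41 ± 0.09, adjusted p = 0.0383, but 0.154 without pWT replicate 2). Prox1, a homeobox factor, stood at 51.4 and 42.9 CPM in pTKO and 61.0 and 70.5 CPM in pWT (−0.51 ± 0.10, adjusted p = 0.0322), and Lhx2, a LIM homeobox factor, at 79.6 and 74.3 CPM in pTKO and 95.5 and 92.6 CPM in pWT (−0.31 ± 0.07, adjusted p = 0.0483). Prox1 was not called without pWT replicate 2 (0.143), and of the fits that left out a library Lhx2 was called only in the one without pTKO replicate 1 (0.0124). With the length trend taken out, Lhx2 was called (0.044), while Tcf7l2 (0.0529) and Prox1 (0.109) were not.

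Genes of cell division lay lower. All 24 genes of the mitosis list had a negative log2 fold change, with a median of −0.23, and 2 fell. Both pTKO libraries lay below both pWT libraries for 21 of the 24, where this held for 18.8% of all genes with a count. Mki67, the proliferation antigen, stood at 95.7 and 109 CPM in pTKO and 156 and 124 CPM in pWT (−0.46 ± 0.10, adjusted p = 0.0333). Top2a, the topoisomerase of dividing cells, stood at 69.5 and 78.8 CPM in pTKO and 101 and 92.2 CPM in pWT (−0.39 ± 0.08, adjusted p = 0.0315). Neither was called without pWT replicate 1 (0.126 and 0.102) or with the length trend taken out (0.116 and 0.0517), and the change of Mki67 was −0.29 without that library. The median of the list was −0.20 without that library and −0.23 with the trend taken out. Ezh2, the methyltransferase of histone H3 that is high in progenitors, fell to 58.0 and 61.3 CPM in pTKO, against 80.7 and 78.4 CPM in pWT (−0.43 ± 0.07, adjusted p = 0.0151), and held without any 1 library. Atad2, a chromatin factor of proliferating cells, stood at 13.98 and 15.4 CPM in pTKO and 25.5 and 21.6 CPM in pWT (−0.68 ± 0.13, adjusted p = 0.0288, but 0.127 without pWT replicate 1). Mki67, Top2a and Ezh2 were chosen after their values were seen.

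Few genes of the neuronal lists were called. Of 14 pan-neuronal genes Dcx and Elavl4 fell and 12 were not called. Of 14 genes of glutamatergic neurons 12 had a negative log2 fold change, with a median of −0.14, and 1 of them, Gria2, fell. Of 14 genes of GABAergic neurons 10 were negative, with a median of −0.18, and 1, Dlx6os1, fell. Elavl4 and Gria2 were each called in 1 of the 4 fits that left out a library, and Dlx6os1 in 3. With the length trend taken out the medians of the glutamatergic and GABAergic lists were −0.08 and −0.16. Dcx, a microtubule protein of young migrating neurons, stood at 1445 and 1487 CPM in pTKO and 1697 and 1699 CPM in pWT (−0.23 ± 0.05, adjusted p = 0.0383). Sox11, a factor of young neurons, stood at 636 and 543 CPM in pTKO and 713 and 721 CPM in pWT (−0.30 ± 0.07, adjusted p = 0.0449). Thy1, a surface protein of mature neurons, rose to 50.3 and 57.2 CPM in pTKO, against 36.6 and 32.2 CPM in pWT (0.63 ± 0.10, adjusted p = 0.0104). Syp, a protein of synaptic vesicles, rose to 385 and 351 CPM in pTKO, against 285 and 287 CPM in pWT (0.35 ± 0.06, adjusted p = 0.017). Thy1 and Syp held without any 1 library. Dcx and Sox11 were not called without pWT replicate 2 (0.0552 and 0.0857), nor Sox11 without pTKO replicate 2 (0.0986, a change of −0.18), or with the length trend taken out (0.576 and 0.236). The genes named from these neuronal groups were chosen after their values were seen.

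The clustered protocadherins, surface proteins whose promoter choice is known to follow methylation, showed no called gene. The 14 alpha genes had log2 fold changes of 0.10 to 0.16 and the 22 gamma genes of −0.04 to 0.14. Neither edgeR nor DESeq2 called any, a count of 0, while 9 alpha genes and 1 gamma gene had an unadjusted p under 0.05. Members of each of these clusters share constant exons, so their counts are not independent and the promoter used was not resolved. The 21 tested beta genes, which do not share exons, ran from −0.52 to 0.44 with a median of −0.02. Of them 0 were called by edgeR (3 at an unadjusted p under 0.05).

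Among the remaining genes with the largest changes, Wdfy1, an adaptor of endosomal signalling, fell to 71.4 and 65.0 CPM in pTKO, against 111 and 102 CPM in pWT (−0.66 ± 0.08, adjusted p = 8.80e-04), and held without any 1 library. Kcna3, a voltage-gated potassium channel, stood at 8.22 and 8.22 CPM in pTKO and 14.7 and 13.4 CPM in pWT (−0.79 ± 0.17, adjusted p = 0.0374). Itga2, a collagen receptor subunit, stood at 2.101 and 3.27 CPM in pTKO and 7.65 and 5.71 CPM in pWT (−1.29 ± 0.30, adjusted p = 0.0471). Prr19, a factor of meiotic crossing over, stood at 5.66 and 5.50 CPM in pTKO and 2.24 and 2.38 CPM in pWT (1.25 ± 0.29, adjusted p = 0.0482). The calls of Kcna3, Itga2 and Prr19 were each kept in 2 of the 4 fits that left out a library.

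Whether a change differed between brain and the other organs was asked in 1 fit over all 20 E18.5 libraries of batch 1. Of 18806 genes tested, 1 was called (0.00532%), and 1489 had an unadjusted p under 0.05, while DESeq2 called 20. The common spread between replicates, the biological coefficient of variation of edgeR, was 0.269 in this fit and 0.0689 in the fit of brain alone. With so wide a spread few differences could be called, so the lack of a call does not show that a change was shared between organs. The gene was Slc15a2, a transporter of small peptides, on chromosome 16. In brain it stood at 22.9 and 29.4 CPM in pTKO and 21.3 and 17.7 CPM in pWT, and its change there was not called (0.42 ± 0.14, adjusted p = 0.142). In heart it stood at 6.07 and 7.37 CPM in pTKO and 0.143 and 0.0526 CPM in pWT, and in liver at 15.4 and 21.2 CPM in pTKO and 0.129 and 0 CPM in pWT. In kidney it stood at 66.7 and 63.2 CPM in pTKO and 34.8 and 32.2 CPM in pWT, and in lung at 49.1 and 56.1 CPM in pTKO and 57.2 and 61.4 CPM in pWT. The brain change minus the mean change of the other organs was −3.18 ± 0.36 on the log2 scale (adjusted p = 0.015).

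The pWT libraries of heart, kidney and liver stood apart in other genes as well, which bears on every contrast between brain and these organs. Xist, the RNA of the silent X chromosome, stood at 1293 and 1297 CPM in pTKO hearts and 201 and 30.0 CPM in pWT hearts, and at 913 and 1222 CPM in pTKO livers and 633 and 15.97 CPM in pWT livers. Mki67 stood at 243 and 233 CPM in pTKO hearts and 41.0 and 24.1 CPM in pWT hearts. In brain Xist stood at 2142 and 2492 CPM in pTKO and 3038 and 2754 CPM in pWT (−0.34 ± 0.07, adjusted p = 0.0293), a fall that held without any 1 library but not with the length trend taken out (0.163). The low Xist and Mki67 of pWT hearts thus had no counterpart in pWT brains, and their part in the contrast was not tested.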

How the data were processed

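The deposited tables hold raw counts, 1 per gene and library, as the values themselves show. Per the submitters' processing notes the authors used Trim Galore 0.6.6, HISAT2 2.1.0, featureCounts 1.6.4, DESeq2 and the build mm10. Strand and multimapping settings are not stated in the sources used here, so counts of genes that overlap or are near copies are uncertain. The protocol names a poly(A) kit and a low-input kit without saying which library used which.

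Brain libraries (2 per group, 10.7 to 16.2 M counts) were fitted alone with edgeR 4.0.16 in R 4.3.3. Genes were kept with filterByExpr (minimum count 10), scaled by TMM and compared by the quasi-likelihood F test, with Benjamini-Hochberg adjustment over all genes and a threshold of 0.05. Standard errors come from the fold change and F. CPM were computed from library totals, without TMM. The contrast between organs used 20 libraries of 17.6 to 37.4 M counts outside brain. The procedure was tested on simulated data.

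Alternatives were the Wald test of DESeq2 1.42.0, other scalings, no filter, the replicate number as a block, other sets of libraries, no globins, and each library left out. Others, chosen after seeing the data, took out trends on transcript length or GC content in 25 bins per library, with annotation from GENCODE M21.

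The 51 gene lists (867 entries, 852 in the table) and the comparison were chosen with earlier results of these data known. Genes were named if they were deleted Dnmt genes, called imprinted genes, among the 10 largest called rises or falls with at least 5 CPM in the higher group (predicted genes and pseudogenes left out), among the 4 members with the smallest p of a list with 3 or more calls, or among the 5 smallest adjusted p of the organ contrast. Others are marked as chosen after their values were seen. A few genes are not reported here by name and remain in the counts. Promoter sequences are from RefSeq (GRCm38.p6), matched by symbol for 29 of 34 germ cell genes.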

Additional observations from a re-analysis of the deposited data

Results flagged for a closer look

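Slc15a2, a transporter of small peptides, was the 1 gene whose brain change differed from the mean change of heart, kidney, liver and lung by a test of the difference itself. The difference was −3.18 on the log2 scale (SE 0.36, edgeR adjusted p = 0.015 over 18806 genes). The gene stood at 22.9 and 29.4 CPM in pTKO brains and 21.3 and 17.7 CPM in pWT brains, and the size of the difference comes from heart and liver, where pWT libraries were near 0. The call was lost without either pTKO brain library (adjusted p = 0.207 and 0.178), without either pWT brain library (0.0894 and 0.0834), without either pTKO kidney library (0.0607 and 0.0571) and without either pWT lung library (0.0643 and 0.0612). The difference ran from −4.25 to −2.95 over the fits that left out 1 library.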

How the results depend on the processing

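The brain comparison called 272 genes, against 951 with no filter on low counts, 0 with all 20 libraries in the fit (377 at an unadjusted p under 0.05) and 99 with the trend on transcript length taken out. It ran from 155 to 687 over the fits without 1 brain library; where a group is left with 1 library, that library is assumed to vary like the others. Among settings that stayed within 1.5 times, DESeq2 called 258 genes but gave no adjusted p for 98 of the 272, among them the 7 germ cell genes and Irf7. Genes without an adjusted p count here as not called by DESeq2, so its lack of calls in a list of low genes adds no support. The GC trend taken out left 197, with 74 that rose and 123 that fell. Rises made up 39.3% of the calls. This share moved by over 10 points with DESeq2 (58 rose, 200 fell), library totals (120 and 113), the length trend taken out (71 and 28), and without pWT replicate 1 (93 and 62), pTKO replicate 1 (287 and 269) or pTKO replicate 2 (353 and 334). Without the filter 407 rose and 544 fell. Of the contrast between brain and the mean of the other organs, DESeq2 called 20 genes, heart set alone against brain gave 4552, and leaving out 1 of the 20 libraries gave 0 to 3. With all 20 libraries in the fit the common spread was 0.269, against 0.0689 in brain alone. The log2 fold change of Dnmt1 in brain, as an example, was −0.78 there and −0.79 in brain alone. The causes of these moves were not tested. No named gene changed sign with a call under any setting run.

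With the replicate number as a block 168 genes were called in brain, 81 that rose and 87 that fell. The labels do not say that a number pairs samples, and the differences between replicates 1 and 2 correlated across genes at −0.0223 between the groups, so the libraries are taken to share only a number. Under the block Slc15a2 kept its call (adjusted p = 0.0326).

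At 10.7 to 16.2 M (mega) counts per brain library, 19 of 34 germ cell genes were too low to test, so their change was not detectable at this depth. With 2 libraries a group no single value can be tested by permutation to 0.05.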

Other observations

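Genes of energy metabolism and protein synthesis lay slightly higher in pTKO brains. All 33 tested nuclear genes of the respiratory chain had a positive log2 fold change, with a median of 0.16, 0 called by edgeR or DESeq2 and 11 at an unadjusted p under 0.05, and the median was 0.08 with the trend on transcript length taken out. Of 38 cytoplasmic ribosomal protein genes 37 were positive, with a median of 0.12 and 1 that rose, and the median was 0.02 with that trend taken out. Of 18 tested genes of hypoxia and glycolysis 2 rose. Of 16 tested immediate early genes, which follow neuronal activity and handling, 0 were called by edgeR and 2 had an unadjusted p under 0.05. Npas4 stood at 20.1 and 15.5 CPM in pTKO and 15.5 and 18.2 CPM in pWT (0.04 ± 0.16, adjusted p = 0.923).

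A few single genes rose by about as much as the named ones and were picked once their values were known. Dnah7b, a dynein heavy chain of cilia, rose to 33.0 and 36.1 CPM in pTKO, against 17.0 and 16.8 CPM in pWT (1.02 ± 0.11, edgeR adjusted p = 5.96e-04). Of 10 tested genes of ependymal and ciliated cells, 0 were called by edgeR and 2 had an unadjusted p under 0.05. Rps4l is a ribosomal protein S4 relative annotated as a transcribed processed pseudogene. It rose to 77.5 and 74.5 CPM in pTKO, against 42.5 and 42.9 CPM in pWT (0.81 ± 0.08, adjusted p = 2.30e-04). Multimapping settings are not stated, so its count is uncertain. Cck, a neuropeptide, stood at 13.6 and 11.9 CPM in pTKO and 5.97 and 7.29 CPM in pWT (0.92 ± 0.19, adjusted p = 0.0339), and Nrgn, a calmodulin-binding protein of postsynaptic sites, at 52.0 and 45.7 CPM in pTKO and 29.8 and 33.3 CPM in pWT (0.61 ± 0.11, adjusted p = 0.0156). Neither was called without pWT replicate 1 (0.115 and 0.0568), nor Cck with the length trend taken out (0.0718). Sftpc, a lung surfactant protein, stood at 5.66 and 2.84 CPM in pTKO brains and 0.840 and 0.396 CPM in pWT brains (2.75 ± 0.51, adjusted p = 0.0201, but 0.0744 without pWT replicate 2). Sftpc passed the filter on low counts only through the pTKO libraries and so had to differ, and no support is drawn from its call. Hoxc4 stood at 6.76 and 0.432 CPM in pTKO and 2.05 and 0.0792 CPM in pWT, again highest in replicate 1 of each group.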
